A study of Eutrema salsugineum with 2 samples.

Results

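The genes described here were Eutrema salsugineum loci that shared their best Arabidopsis thaliana hit with at least 1 other locus, so that several E. salsugineum genes were annotated as copies of 1 A. thaliana gene. Members were chosen by that annotation and by measured values: at least 1 read in the YK library and at least 1 read in the SH library. The annotation could be read for 1998 of the 17888 genes in the table, of which 1918 had a hit. In those rows, 130 genes shared 58 hits, and after the read requirement 69 genes with 46 hits remained as members. Of these hits, 17 kept at least 2 copies (40 genes) and 29 kept 1 copy. By the rule, 9 hits and those of chloroplast-encoded genes were left out. Because only a portion of the annotation was read, mainly rows of scaffolds 15, 4, 22, 20 and 12, further copies elsewhere in the genome are not known here.

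E. salsugineum is a salt-tolerant relative of A. thaliana, and the study compared its Yukon (YK) accession, from Canada, with its Shandong (SH) accession, from China. Both accessions were untreated plants, 4 weeks old, grown under a 12 h photoperiod, and whole rosettes were frozen in the middle of the dark period. One library from 5 pooled plants was sequenced per accession by pyrosequencing of cDNA, so neither accession has a replicate and no test was made between them. The genome to which reads were aligned is that of SH.

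Duplicate genes arise when a chromosome segment is copied next to the original, which leaves tandem copies, or when a copy is placed elsewhere by transposition or by duplication of the whole genome, which leaves dispersed copies. Copies begin alike and can then diverge, with 1 copy carrying most of the transcript or with different copies used in different tissues and accessions. Plant gene families of defence, receptor kinases and F-box proteins are known for tandem arrays, whereas histone and calmodulin genes are known for copies that encode nearly the same protein.

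The YK library held 431705 reads on genes and the SH library 482275 reads. Reads were detected for 16245 genes in YK and 16220 genes in SH, with a median of 7 reads per detected gene in each. In all, 14577 genes had reads in both libraries, and 9922 of these (68.1%) had at least 10 reads over both. A gene without reads can still have been present at up to 3 reads, which is 6.95 RPM (reads scaled by the library total) in YK and 6.22 RPM in SH. None of the 16 leaf, 9 seed and 4 flower marker hits listed for the purpose was among the annotated rows, so the rosette label could not be checked with them, although 1 member, PSBX, encodes a photosystem II subunit of green tissue. Ratios below use the reads as deposited, since the median-of-ratios factors of both libraries were 1; scaling to total reads adds 0.16 to the log2 ratio (YK over SH) of each gene, and scaling by the trimmed mean of M-values shifts it by -0.03.

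Members were mostly weakly detected, and a few copies held most of the reads. The 69 members had a median of 6 reads in YK, range 1 to 1014, and a median of 6 reads in SH, range 1 to 1289. Genes seen in both libraries had a median of 8 reads in each. Members summed to 2848 reads in YK (0.660% of the library) and 3332 reads in SH (0.691%), and the 3 most abundant members held 62.4% of the members' reads in YK and 69.7% in SH. Of the members, 41 had at least 10 reads over both libraries (59.4%), 9 had at least 100 reads and 28 stayed under 10 reads. At the edge of the rule, 13 members had 1 read in at least 1 library, and 5 of them had 1 read in each. The 61 copies just outside the rule had reads in YK only (31 genes) or in SH only (30 genes), with a median of 1 read. Of these, 54 had fewer than 4 reads, and 3 reached 10 reads or more, the highest being 17 reads.

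The chitinase hit AT2G43570 (CHI) carried the most reads. Chitinases cleave the chitin of fungal cell walls and belong to the pathogenesis-related proteins of plants. Its copies lie 1766 bp apart on scaffold 22, Thhalv10001581m.g from 144393 to 145680 and Thhalv10001575m.g from 147447 to 148726. Thhalv10001581m.g had 1014 reads in YK and 1289 reads in SH, and Thhalv10001575m.g had 138 reads in YK and 105 reads in SH. The first copy was thus read more often in SH and the second more often in YK. Per kb of locus, which corrects for the length of the annotated span with introns, Thhalv10001581m.g exceeded Thhalv10001575m.g by 7.30 times in YK (95% exact interval 6.11 to 8.79) and by 12.2 times in SH (9.99 to 15.0). These intervals, like all intervals given here, cover counting error only and not the difference between plants.

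The chitinase pair shows how the balance between copies can be compared without any scaling of the libraries. The copy with the higher level per kb over both libraries, called the leading copy, held 88.0% of the reads of the hit in YK (86.0 to 89.8) and 92.5% in SH (91.0 to 93.8). The odds that a read of this hit fell on the leading copy were 0.60 times as high in YK as in SH (conditional exact interval 0.45 to 0.79). Thhalv10001581m.g led in both libraries, by a smaller margin in YK. Among all 19 hits with at least 2 copies, the 2 left out by the rule included, the interval of this odds ratio lay off 1 for 26.3%. Among the 17 described here it lay off 1 for 4, but since members were chosen by their reads in these libraries, nothing is read from that count.

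**Figure D1:**
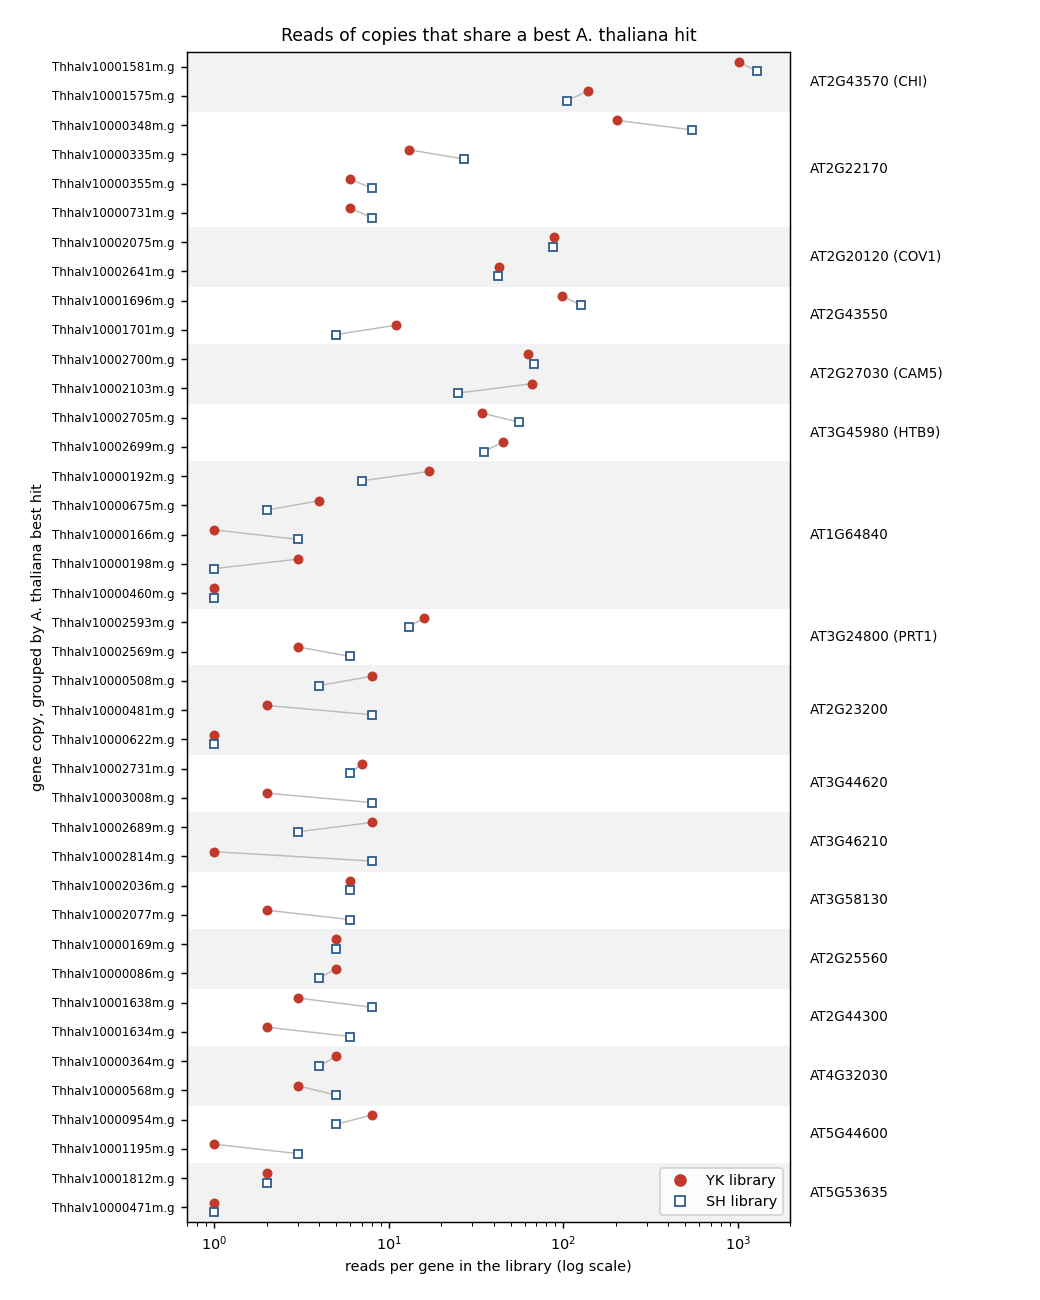
Reads per gene on a log axis for the 40 copies of the 17 hits that kept at least 2 copies, grouped by A. thaliana hit; red circles are the YK library and open blue squares the SH library, with 1 library per accession and no error bars. The CHI copy Thhalv10001581m.g reaches 1014 reads in YK and 1289 reads in SH, whereas most copies in the lower portion have fewer than 10 reads in each library.

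The calmodulin hit AT2G27030 (CAM5) had a copy balance that differed between the accessions. Calmodulin is the small calcium-binding protein that passes calcium signals to many enzymes and channels. Thhalv10002700m.g (scaffold 4, 14098174 to 14100181) had 63 reads in YK and 68 reads in SH. Thhalv10002103m.g (scaffold 12, 102059 to 104400) had 66 reads in YK and 25 reads in SH. Only the second copy was far from equal between libraries, with a log2 ratio of YK to SH of 1.38 (0.72 to 2.13), against -0.11 (-0.63 to 0.41) for the first. The share of the leading copy Thhalv10002700m.g was 48.8% in YK (39.9 to 57.8) and 73.1% in SH (62.9 to 81.8), with an odds ratio of 0.35 (0.19 to 0.65). Per kb, the leading copy stood 1.11 times as high as the other in YK (0.78 to 1.60) and 3.17 times as high in SH (1.98 to 5.24). In YK the copies were level within counting error, and in SH they were not. Only uniquely aligned reads were counted, so the split is uncertain where the copies are alike in sequence.

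The histone hit AT3G45980 (HTB9) had a copy balance that differed between libraries. Histone H2B is a core component of the nucleosome around which DNA is wound. Both copies lie on scaffold 4, 39044 bp apart with 3 genes between them, Thhalv10002705m.g from 9300368 to 9301118 and Thhalv10002699m.g from 9340163 to 9340970. Thhalv10002705m.g had 34 reads in YK and 56 reads in SH, whereas Thhalv10002699m.g had 45 reads in YK and 35 reads in SH. Per kb, Thhalv10002705m.g stood 0.81 times as high as the other in YK (0.50 to 1.30) and 1.72 times as high in SH (1.11 to 2.71). In YK the copies were thus level within counting error, and a change of leading copy is not shown for Thhalv10002705m.g. Its share of the reads was 43.0% in YK (31.9 to 54.7) and 61.5% in SH (50.8 to 71.6), with an odds ratio of 0.47 (0.24 to 0.91). The log2 ratio of YK to SH was -0.71 (-1.38 to -0.08) for Thhalv10002705m.g, whose interval includes equal reads after scaling to total reads, and 0.36 (-0.31 to 1.04) for Thhalv10002699m.g. Histone copies can be near identical in sequence, and only uniquely aligned reads were counted, so the split between such copies is uncertain.

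The copies of COV1, a gene needed for the spacing of vascular tissue in A. thaliana stems, kept the same proportion in both libraries. Thhalv10002075m.g (scaffold 12, 10475602 to 10477734) had 89 reads in YK and 87 reads in SH. Thhalv10002641m.g (scaffold 4, 5650044 to 5652228) had 43 reads in YK and 42 reads in SH. The share of the first copy was 67.4% in YK and 67.4% in SH, and per kb it stood 2.12 times as high as the second in each. The odds ratio was 1.00 with an interval of 0.58 to 1.73, so a difference in balance within those bounds could not have been detected.

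The hit AT2G22170 encodes a PLAT/LH2 domain protein, a small fold also found in lipoxygenases. It kept 4 copies on scaffold 15 between 637088 and 695695, the closest 3411 bp apart. Thhalv10000348m.g, from 637088 to 638097, had 204 reads in YK and 543 reads in SH, and Thhalv10000335m.g, from 650699 to 651602, had 13 reads in YK and 27 reads in SH. Thhalv10000355m.g and Thhalv10000731m.g each had 6 reads in YK and 8 reads in SH. All 4 copies had fewer reads in YK, and Thhalv10000329m.g, a further copy, fell outside the rule with 1 read in YK and 0 reads in SH. The log2 ratio was -1.41 (-1.65 to -1.18) for Thhalv10000348m.g, -1.03 (-2.13 to -0.05) for Thhalv10000335m.g and -0.39 (-2.22 to 1.30) for each of the others. The interval of Thhalv10000335m.g includes equal reads after scaling to total reads.

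Despite the lower level of this PLAT hit in YK, the proportion of its copies was close in both libraries. Thhalv10000348m.g held 89.1% of the reads in YK (84.3 to 92.8) and 92.7% in SH (90.2 to 94.6), with an odds ratio of 0.65 (0.38 to 1.14). Per kb, it exceeded the second copy by 14.0 times in YK (8.03 to 26.8) and by 18.0 times in SH (12.2 to 27.6). Of the 17 hits, this one had the largest lead of 1 copy over the next, 16.6 times over both libraries.

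The knottin hit AT2G43550 was also led by 1 copy. Knottins are small cysteine-rich proteins, among them plant defensins and protease inhibitors. Thhalv10001696m.g (scaffold 22, 140294 to 140965) had 98 reads in YK and 127 reads in SH, and its neighbour Thhalv10001701m.g, 521 bp away from 139175 to 139772, had 11 reads in YK and 5 reads in SH. The leading copy was read more in SH and the minor copy more in YK, as with the adjacent chitinase copies. Its share was 89.9% in YK (82.7 to 94.9) and 96.2% in SH (91.4 to 98.8), and the odds ratio of 0.35 had an interval of 0.09 to 1.14 that includes 1. The log2 ratio was -0.37 (-0.77 to 0.02) for Thhalv10001696m.g, whose interval lay off equal reads under the trimmed mean of M-values alone, and 1.06 (-0.50 to 3.01) for Thhalv10001701m.g.

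**Figure D2:**
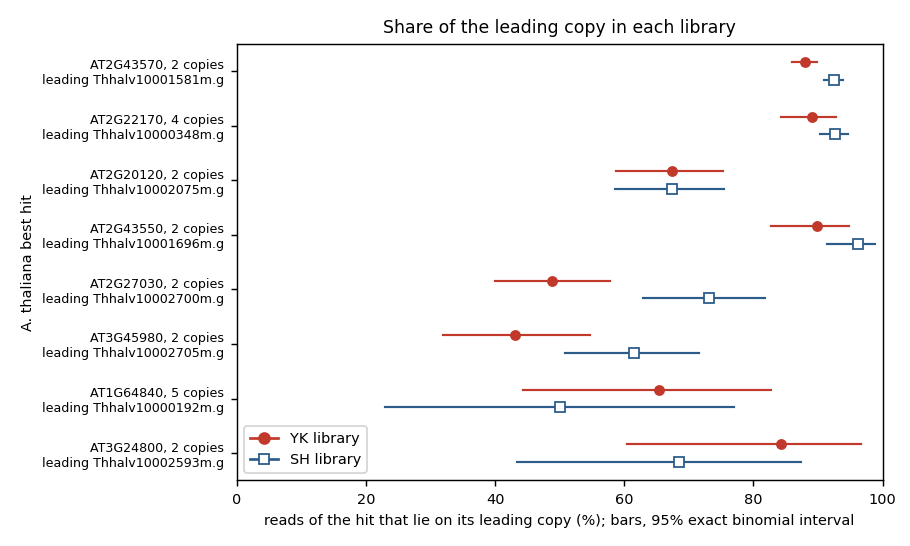
Share of the reads of a hit that lay on its leading copy, in percent, for the 8 hits with the most reads; red circles are the YK library, open blue squares the SH library, and bars are 95% exact binomial intervals. The bars of the CAM5 hit AT2G27030 do not overlap between libraries (48.8% in YK and 73.1% in SH), while those of COV1 coincide at 67.4%.

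Among the remaining hits with several copies, the F-box hit AT1G64840 had the largest number. F-box proteins are the subunits of ubiquitin ligases that select the proteins to be degraded. It kept 5 of 7 copies on scaffold 15, and Thhalv10000192m.g, from 3616357 to 3618213, had 17 reads in YK and 7 reads in SH. The other 4 copies had 1 to 4 reads in YK and 1 to 3 reads in SH, and the copies outside the rule, Thhalv10000199m.g and Thhalv10000175m.g, had 0 reads in YK and 1 read each in SH. The share of Thhalv10000192m.g was 65.4% in YK (44.3 to 82.8) and 50.0% in SH (23.0 to 77.0), with an odds ratio of 1.86 (0.41 to 8.62). Thhalv10000192m.g lies 162009 bp from its nearest copy, whereas the other 4 each have a copy within 1459 bp. At this depth a difference in the balance of these copies was not detectable within that interval.

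PRT1, an E3 ligase of the N-end rule pathway in A. thaliana, kept 2 copies on scaffold 4, 19947 bp apart. Thhalv10002593m.g had 16 reads in YK and 13 reads in SH, and Thhalv10002569m.g had 3 reads in YK and 6 reads in SH. The leading copy was the same in both libraries, with a share of 84.2% in YK (60.4 to 96.6) and 68.4% in SH (43.4 to 87.4) and an odds ratio of 2.40 (0.41 to 17.8).

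The other 9 hits with several copies had fewer than 30 reads over both libraries and all copies. AT3G46210 had copies 72059 bp apart on scaffold 4 that were read in opposite proportions. Thhalv10002814m.g had 1 read in YK and 8 reads in SH, and Thhalv10002689m.g had 8 reads in YK and 3 reads in SH. The odds ratio was 0.057 (0.00094 to 0.70), from 9 reads in YK and 11 reads in SH. AT2G23200, a receptor-like kinase of the family that includes FERONIA in A. thaliana, had Thhalv10000508m.g at 8 reads in YK and 4 reads in SH and Thhalv10000481m.g at 2 reads in YK and 8 reads in SH, beside Thhalv10000622m.g at 1 read in each, with an odds ratio of 5.51 (0.78 to 51.8). For the remaining 7 of these hits the intervals of the odds ratio all included 1, and each copy had 1 to 8 reads per library.

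Of these 7 hits, the lipid transfer protein-like hit AT2G44300, whose copies lie 1285 bp apart, had fewer reads in YK at both copies. Thhalv10001638m.g had 3 reads in YK and 8 reads in SH, and Thhalv10001634m.g had 2 reads in YK and 6 reads in SH. AT3G44620 had Thhalv10002731m.g at 7 reads in YK and 6 reads in SH and Thhalv10003008m.g at 2 reads in YK and 8 reads in SH, so that another copy led in each library. AT3G58130, with copies 1453572 bp apart on scaffold 12, had Thhalv10002036m.g at 6 reads in YK and 6 reads in SH. Thhalv10002077m.g had 2 reads in YK and 6 reads in SH, and led per kb in SH only through its shorter locus. For AT3G44620 and AT3G58130 the intervals of the lead included equal levels in both libraries. The DnaJ-domain hit AT2G25560 (Thhalv10000169m.g and Thhalv10000086m.g) had 4 or 5 reads per copy and library, AT4G32030 (Thhalv10000568m.g and Thhalv10000364m.g) 3 to 5 reads, and the F-box hit AT5G53635 (Thhalv10000471m.g and Thhalv10001812m.g) 1 or 2 reads. AT5G44600 had Thhalv10000954m.g at 8 reads in YK and 5 reads in SH, with Thhalv10001195m.g, 383 bp away, at 1 read in YK and 3 reads in SH.

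Over the 17 hits, the same copy led in both libraries in 12 and another copy led in 5. In each of these 5 the interval of the lead in YK included equal levels. For AT2G23200, AT3G44620 and AT3G58130 the interval in SH did so too. Among the 12, the leads of AT2G25560, AT2G44300, AT4G32030, AT5G44600 and AT5G53635 had intervals that included equal levels in both libraries. A lead of at least 2-fold per kb in both libraries was found for 5 hits, namely CHI, the PLAT hit AT2G22170, COV1, the knottin hit AT2G43550 and the F-box hit AT1G64840. For COV1 and the F-box hit the intervals reached below 2-fold in both libraries. The F-box lead in SH, 2.92 times (0.56 to 28.8), was not apart from equal levels. Copies of 1 hit were of similar length, the longest locus being 1.17 times the shortest at the median and 3.24 times at most.

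Copy by copy, the ratio of YK to SH scattered around equal reads. The 41 members with at least 10 reads had a median log2 ratio of 0.03, against 0.00 for the 9922 genes of the table with as many reads, and a median absolute log2 ratio of 0.67, against 0.49. More reads were counted in YK for 22 of them, more in SH for 16, and equal reads for 3. A difference of at least 2-fold was found for 15 of the 41 (36.6%), against 20.5% of the table. Of these, 8 had more reads in YK, against a background of 10.5%, and 7 had more in SH, against 10.0%. When the interval also had to lie off equal reads, 6 copies remained, against 10.9% of the table, 4 with more reads in YK (background 5.21%) and 2 with more in SH (background 5.72%). After scaling to total reads, 9 copies had at least 2-fold more reads in YK and 5 in SH. The table shifted the same way under this scaling, to 1361 genes with more in YK and 718 with more in SH. The members were chosen by reads in these same libraries and were less deeply read than the table, so nothing is read from these shares.

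Irrespective of the fold, 10 of the 41 members with at least 10 reads had an interval off equal reads. The share over the genes of the table with as many reads was 18.3%, and nothing is read from the count. Of the 10 members, 6 kept an interval off equal reads under all 4 scalings. With more reads in YK these were Thhalv10000632m.g, Thhalv10001335m.g, Thhalv10002103m.g and Thhalv10002015m.g, and with more reads in SH Thhalv10000348m.g and Thhalv10001581m.g. The other 4, among them the minor chitinase copy Thhalv10001575m.g at 0.39 (0.02 to 0.77), lost it under at least 1 scaling.

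**Figure D3:**
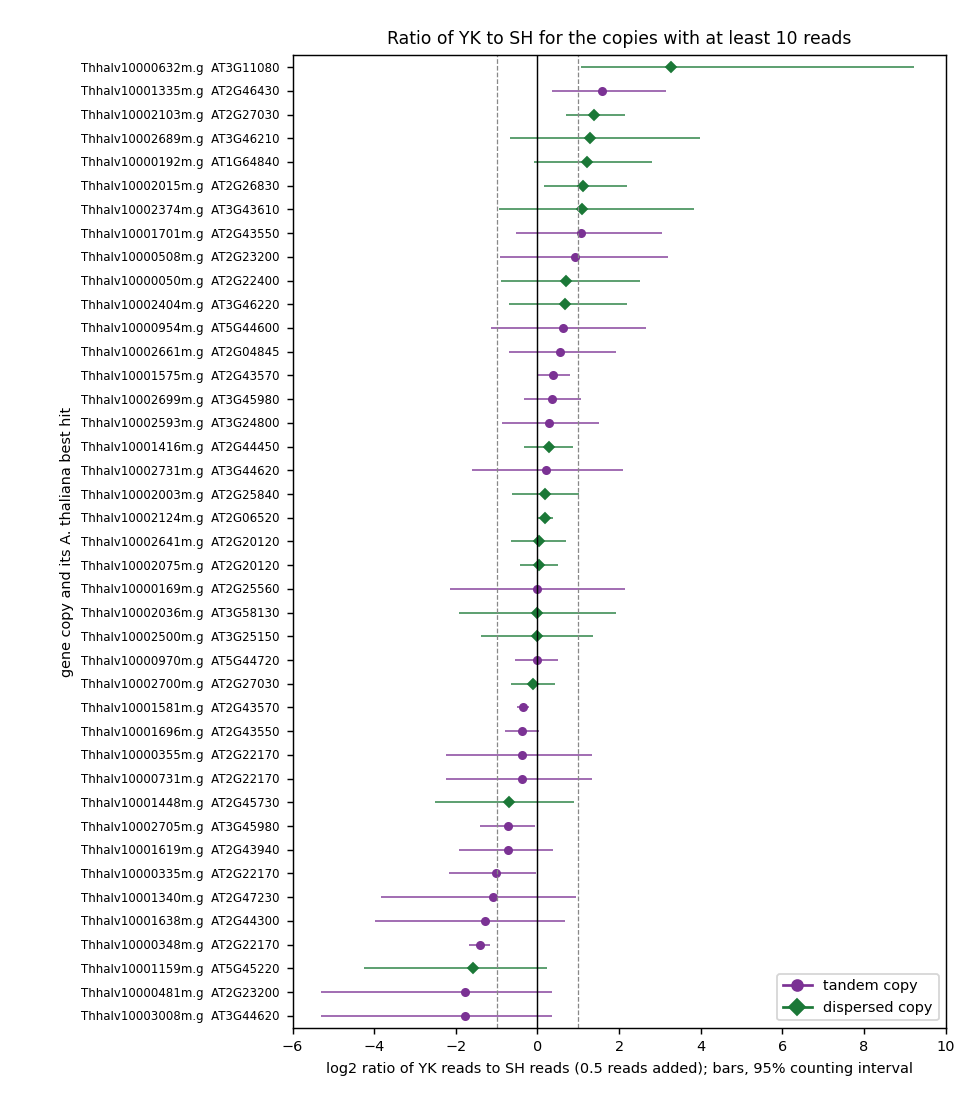
Log2 ratio of YK reads to SH reads, after 0.5 reads were added, for the 41 members with at least 10 reads; violet circles are tandem copies, green diamonds dispersed copies, bars 95% exact counting intervals, and dashed lines mark 2-fold. The top bar, Thhalv10000632m.g, rests on 14 reads in YK and 1 read in SH, and the narrow bar of Thhalv10000348m.g lies at -1.41.

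The 29 hits with 1 member were hits whose other annotated copies had reads in 1 library only. For 23 of them, all other copies had fewer than 4 reads, although some of these members had hardly more reads themselves. A partner was more likely to be readable in the annotation if it had been seen in 1 accession, because the rows that could be read begin with such genes, and the share of silent partners is therefore not that of the genome.

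The highest of these was the copy of PSBX, a small subunit of photosystem II. Thhalv10002124m.g (scaffold 12, 10690331 to 10691765) had 560 reads in YK and 492 reads in SH, and its partner Thhalv10002862m.g had 1 read in YK and 0 reads in SH. The log2 ratio was 0.19 (0.01 to 0.36), and its interval included equal reads under the trimmed mean of M-values. AT5G44720, a molybdenum cofactor sulfurase family protein, was close to equal at Thhalv10000970m.g, with 68 reads in YK and 69 reads in SH. So was the glycosyl hydrolase BGLU15 at Thhalv10001416m.g, with 58 reads in YK and 48 reads in SH. OVA4, a tryptophanyl-tRNA synthetase of A. thaliana organelles, had 31 reads in YK and 27 reads in SH at Thhalv10002003m.g. These 4 copies differed by less than 2-fold between the libraries.

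RLP35 is a receptor-like protein, a class of membrane proteins with leucine-rich repeats outside the cell. Thhalv10000632m.g (scaffold 15, 2032251 to 2034983) had 14 reads in YK and 1 read in SH, a log2 ratio of 3.27 (1.09 to 9.21). Its 3 partners outside the rule summed to 7 reads in YK and 0 reads in SH. All copies of this hit were therefore read more in YK.

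CNGC3 is a cyclic nucleotide-gated ion channel of the plasma membrane. Thhalv10001335m.g (scaffold 22, 1213484 to 1217048) had 22 reads in YK and 7 reads in SH, a log2 ratio of 1.58 (0.37 to 3.12). Its partner Thhalv10001345m.g, 255 bp away, had 17 reads in YK and 0 reads in SH, the most reads of any copy outside the rule. Both neighbours were read more in YK.

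The choline kinase family gene emb1187, named for an embryo-defective mutant of A. thaliana, had 31 reads in YK and 14 reads in SH at Thhalv10002015m.g, on scaffold 12 from 3207901 to 3212085. Its log2 ratio was 1.12 (0.19 to 2.17), and its partner had 0 reads in YK and 1 read in SH. Thhalv10002374m.g (AT3G43610) had 7 reads in YK and 3 reads in SH, whereas its partner Thhalv10029231m.g had 0 reads in YK and 11 reads in SH. Thhalv10002456m.g (AT3G07050) had 4 reads in YK and 4 reads in SH, whereas its partner Thhalv10014729m.g had 0 reads in YK and 15 reads in SH. The partners of AT3G43610 and AT3G07050, read in SH only, had 11 and 15 reads over both libraries, against 10 and 8 for the members.

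With at least 2-fold more reads in SH, Thhalv10001159m.g (AT5G45220, a TIR-domain protein of the immune receptor type) had 3 reads in YK and 10 reads in SH. Thhalv10001340m.g (AT2G47230, with the gene name DUF6) had 3 reads in YK and 7 reads in SH. Both intervals include equal reads. The other 6 hits with 1 member and at least 10 reads had 6 to 15 reads in YK and 6 to 20 reads in SH, with log2 ratios from -0.71 to 0.69. The 13 with fewer than 10 reads had 1 to 7 reads in YK and 1 to 7 reads in SH.

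The copies past 2-fold were also counted by a role assigned here to the A. thaliana hit, beside 20.5% of the table past 2-fold. The assignment was not complete, and hits left without a role may belong to 1 of the groups. Of the members with at least 10 reads, 4 of 8 in defence and receptor hits, 3 of 5 in lipid-binding and stress hits, 2 of 3 in calcium and ion hits and 1 of 6 in metabolic hits passed 2-fold, and so did 4 of 7 in the 10 hits to which no role was assigned. None of the 6 copies in the hits placed under RNA, translation and protein turnover did, with log2 ratios from 0.00 to 0.69. The photosynthesis, chromatin and development hits had 1, 2 and 2 such copies, none past 2-fold. The 9 F-box members were nearly all under 10 reads, and the 1 that was not, Thhalv10000192m.g, had a log2 ratio of 1.22 (-0.06 to 2.79). The roles were assigned with the values known, and no list was tested, so nothing is read from these small counts.

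Tandem and dispersed copies were compared by the distance to the nearest copy of the same hit. A copy was taken as tandem when that copy lay within 50 kb on the same scaffold, and as dispersed otherwise, as far as the readable annotation showed it. This gave 40 tandem members of 23 hits and 29 dispersed members of 24 hits. The rule kept 52.6% of 76 tandem copies and 53.7% of 54 dispersed copies, shares that follow from the reads used by the rule and from the rows that could be read. Levels per kb spanned the same orders of magnitude, with a median of 2.72 reads per kb for tandem and 2.16 for dispersed copies in YK, and 4.32 for tandem and 1.75 for dispersed copies in SH. The highest tandem copy was CHI, at 787 reads per kb in YK and 1001 in SH, and the highest dispersed copy was PSBX, at 390 reads per kb in YK and 343 in SH.

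The direction of the ratio differed between tandem and dispersed copies on these counts, but the tandem value hung on a few copies. Of the 23 tandem members with at least 10 reads, 9 had more reads in YK, 13 had more in SH and 1 was equal, with a median log2 ratio of -0.35 and a range of -1.77 to 1.58. Of the 18 dispersed members, 13 had more reads in YK, 3 had more in SH and 2 were equal, with a median of 0.23 and a range of -1.58 to 3.27. Without the 4 copies of the PLAT hit AT2G22170, the tandem median was 0.00 over 19 copies, and with tandem set at 100 kb it was -0.02. After scaling to total reads the medians were -0.19 for tandem and 0.39 for dispersed copies. The median absolute log2 ratio was 0.63 for tandem and 0.68 for dispersed copies. At least 2-fold differences were found in 8 of 23 tandem and 7 of 18 dispersed copies, against 20.5% of the table. When the interval also had to lie off equal reads, 3 tandem and 3 dispersed copies remained, against 10.9% of the table. Nothing is read from these counts. Copies of 1 hit are not independent of each other, and the arrangement was not tested.

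Between copies of 1 hit, tandem arrays included the steepest differences in level. In the 12 hits with a tandem pair, the leading copy stood at the median 2.45 times above the second per kb over both libraries, range 1.08 to 16.6. In the 5 dispersed hits it stood 1.62 times above, range 1.12 to 2.12. That dispersed median is the value of AT5G53635, with 6 reads in all, and the tandem median lies between PRT1 and AT4G32030. In AT5G53635 and AT4G32030 the leading copy had fewer reads than the other and led through its shorter locus. Without correction for locus length the medians were 2.34 for tandem and 1.54 for dispersed hits. The 3 largest leads, of the PLAT, knottin and CHI hits, were all tandem. In the F-box hit AT1G64840, counted as tandem here, the leading copy is itself dispersed. The same copy led in both libraries in 9 of 12 tandem and 3 of 5 dispersed hits, and the interval of the odds ratio lay off 1 in 2 tandem and 2 dispersed hits. The dispersed hits had fewer reads, with 281 in YK and 248 in SH, than the tandem hits, with 1666 in YK and 2303 in SH, so the ranges are not equally well measured.

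**Figure D4:**
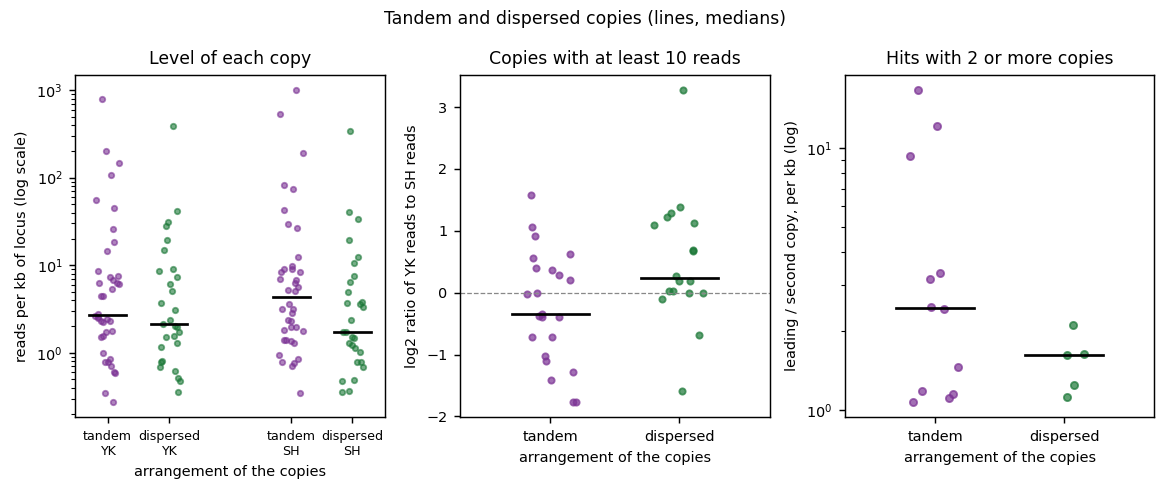
Left, reads per kb of locus (log axis) of the 40 tandem and 29 dispersed members in the YK and the SH library; middle, log2 ratio of YK reads to SH reads of the 41 copies with at least 10 reads; right, ratio of the leading to the second copy per kb over both libraries (log axis) for the 17 hits with several copies. Points are copies or hits and black lines are medians, at -0.35 for tandem and 0.23 for dispersed copies in the middle panel.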

How the data were processed

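Read counts per gene were deposited by the authors, unnormalized, in 1 table with a column for each library. Per the study's methods, trimmed reads were aligned to the JGI E. salsugineum genome, that of the SH accession, with GSNAP/GMAP, and uniquely aligned reads were counted with HTSeq (0.5.4p5) without regard to strand, so reads of overlapping genes on opposite strands and of near-identical copies may be lost or misplaced, and YK reads may align less well where the accessions differ. The table also holds the authors' YK over SH fold changes, p-values and adjusted p-values from DESeq (1.14.0), which were not used. Start and end positions were taken from the table, and A. thaliana hits from the study's supplementary annotation, of which the first 1998 rows could be read. The row without a gene name was left out. The labels mention 4 biological replicates of 5 plants, whereas the series design gives 1 library of 5 pooled plants per accession.

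Log2 ratios of YK to SH were computed after adding 0.5 reads. Intervals are exact (Clopper-Pearson) at 95%, and copy balance was the conditional odds ratio (scipy 1.17.1). Genes needed 10 reads over both libraries to be compared and a 2-fold ratio to be counted. Levels were reads per kb of locus. Scalings were computed with edgeR 4.0.16, and the scripts were tested on simulated data. By the rule for named genes, hits with at least 2 members were named with all copies, in full at 30 or more reads, and hits with 1 member where that copy was past 2-fold at 10 or more reads or had 100 or more reads. OVA4, AT3G07050 and AT3G46220 were named after their values were seen. Members, role groups and the 50 kb distance were chosen with earlier results of these data known.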

Additional observations from a re-analysis of the deposited data

How the results depend on the processing

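The count of copies at least 2-fold apart, 15 of 41, depended on its thresholds. It was 6 of 23 with a minimum of 20 reads (15.6% of the table), 25 of 69 with no minimum (23.4% of the table), 1 with a 4-fold threshold and 6 when the interval had to lie off equal reads. It moved by no more than 1.5 times under the other scalings, a minimum of 5 reads, 1 added read, a 1.5-fold threshold, or without AT2G22170. The count of hits with a 2-fold lead in both libraries was not checked under other settings. Tandem distances of 10 and 100 kb were tried for medians only. No median left its interval, which describes the scatter over copies or hits rather than counting error. That interval was wide, at -0.71 to 0.36 for the tandem median log2 ratio. The tandem median of 0.00 without AT2G22170 thus lay within it, so this check says little about that median. Scaling to total reads changed the log2 ratio of Thhalv10001581m.g to -0.19. Without correction for locus length, the leading copy was the same in 14 of 17 hits, and with copies outside the rule included in 17 of 17. Only AT1G64840, AT2G22170 and AT2G23200 had such copies, each with 1 read, so the second check says little. The 4 hits with an odds ratio off 1 had no copies outside the rule, so including such copies could not change them. No paired analysis was possible because each accession had 1 library. For the same reason no library could be left out. The alternatives that need RefSeq gene lengths or protein sequences were not run, because no gene ID matched the reference table. Depth limits all but the most abundant copies: 28 of 69 members had fewer than 10 reads, where an interval spans several fold, and a missing read in 1 library says little about a copy.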

Other observations

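Some copies came as blocks of neighbouring genes rather than as single genes. On scaffold 4, copies of AT3G46220 and AT3G46210 lay side by side at 2 places. At the first, Thhalv10002404m.g had 13 reads in YK and 8 reads in SH, and Thhalv10002689m.g, 209 bp away, had 8 reads in YK and 3 reads in SH. At the second, Thhalv10002414m.g had 0 reads in YK and 3 reads in SH, and Thhalv10002814m.g, 810 bp away, had 1 read in YK and 8 reads in SH. Both genes of the first place were read more in YK and both genes of the second more in SH, on 32 and 12 reads in all, and this was not tested.

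The knottin copies of AT2G43550 and the chitinase copies of AT2G43570 lay next to each other on scaffold 22, between 139175 and 148726. In each pair the copy with most reads, Thhalv10001696m.g and Thhalv10001581m.g, had fewer reads in YK than in SH, and the minor copy, Thhalv10001701m.g and Thhalv10001575m.g, had more in YK. The intervals of both knottin copies include equal reads in the reads as deposited, and that of the minor chitinase copy does so under the trimmed mean of M-values.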
